A study of Mus musculus with 17 samples.

Results

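Olfactory receptor genes form the largest gene family of the mouse genome. Each codes for a G-protein-coupled receptor whose coding sequence usually lies in a single exon. An olfactory neuron uses 1 allele of 1 of these genes, while other cell types keep most of the family silent. The genes stand in clusters on many chromosomes. The start sites described here are those of genes with a symbol of Olfr and a number on any autosome other than 2 and 7, where the 2 largest groups lie. The rule used names and positions only. It found 580 start sites of 576 genes on 14 chromosomes among 24084 start sites in all. Chromosome 9 held 22.8% of them, chromosome 11 held 85, chromosome 10 held 66, chromosome 19 held 61, chromosome 17 held 51 and chromosome 14 held 40. Chromosomes 16, 1, 6, 4, 13, 15, 8 and 3 held 36, 27, 27, 25, 14, 9, 5 and 2. The pileup tables hold all 580, and the count tables of the pellet and supernatant series hold 424, of which 314 are in the authors' LCP class, read here as low-CpG promoters.

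Micrococcal nuclease (MNase) digests DNA that no protein covers, and sequenced fragments therefore come from DNA that was protected. Sperm of 10-week-old C57/B6J mice, crosslinked with formaldehyde, carry most of their DNA on protamines and a remainder on nucleosomes. They were digested by a standard protocol whose supernatant was sequenced, and in 3 titrations: unspun digests, not parted by a spin, with 0.5, 2, 10 and 50 units, and pellets and supernatants of digests with 1, 5, 20 and 100 units. The comparison was the supernatant of digested E14 cells, an ES cell line of the 129 X Ola strain grown in serum and LIF without feeder cells. No agent other than the nuclease and, for sperm, formaldehyde sets the groups apart, and no gene was altered. Each group is 1 library, so no value has a replicate, and intervals are exact 95% intervals that cover counting error only. Cell type, strain, crosslinking and enzyme per cell differ together between sperm and ES cells and cannot be told apart. No marker in such DNA libraries checks the labelled cells.

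An isolated fragment adds 22 to a pileup, so sums are given as fragment equivalents, called fragments here. The standard sperm library held 1447953 fragments in its table and the ES cell library 2019693. The unspun libraries held 33972 to 47588, the pellets 14925 to 56279 and the supernatants 41403 to 79999. The 1-unit pellet and supernatant stand apart: 87.5% and 84.8% of their isolated runs of counts covered 1 or 2 bins, against 3.53% to 6.74% in the other 6 libraries.

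The RefSeq promoter table of build GRCm38.p6, with 250 bases before and 50 after each annotated start, had an entry for 482 of the 576 symbols. Among members with 20 or more fragments, the entries of those with the highest and the lowest ratio of sperm to ES cells, and of Olfr16 (MOR23, a receptor for lyral that is also known from mouse sperm), are shown to set an AT-rich promoter beside one with a higher GC share. Each runs 5′ to 3′ over the 250 bases before the start and the first 3 bases after it. Capitals mark matches on either strand to TATAAA, the core of the box that binds the basal transcription machinery. They also mark TAATTA, and likewise TAATGA, which are cores that homeodomain factors bind. Last, they mark CCCNNGGG, the palindromic core of an Ebf site, as well as a start codon at the annotated start.
Olfr725, minus strand, chr14:50035498-50035750: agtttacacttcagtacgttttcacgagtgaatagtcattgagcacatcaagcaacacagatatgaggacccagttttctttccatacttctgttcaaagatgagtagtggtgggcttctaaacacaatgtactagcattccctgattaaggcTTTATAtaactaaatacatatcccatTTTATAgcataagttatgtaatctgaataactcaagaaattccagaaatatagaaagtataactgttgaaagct
Olfr279, plus strand, chr15:98497224-98497476: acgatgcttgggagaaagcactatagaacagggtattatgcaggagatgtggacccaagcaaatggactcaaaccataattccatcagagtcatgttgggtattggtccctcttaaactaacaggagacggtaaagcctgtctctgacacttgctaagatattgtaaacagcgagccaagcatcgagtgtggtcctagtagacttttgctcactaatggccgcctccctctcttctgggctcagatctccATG
Olfr16, plus strand, chr1:172956518-172956770: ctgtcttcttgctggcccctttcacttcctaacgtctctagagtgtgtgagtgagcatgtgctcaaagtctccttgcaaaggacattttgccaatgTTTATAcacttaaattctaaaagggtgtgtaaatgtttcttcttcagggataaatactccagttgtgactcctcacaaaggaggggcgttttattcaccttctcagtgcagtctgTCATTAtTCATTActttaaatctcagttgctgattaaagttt
Over its 300 bases, the Olfr725 promoter has 33.3% GC and 2 CpG and that of Olfr279 has 49% GC and 6 CpG. The Olfr16 promoter also has 2 CpG. Olfr725 holds a TATA box match at 2 places, Olfr16 holds 1 TATA box match and 2 matches to TAATGA, and Olfr279 has no match to any of the 4 motifs but has an ATG at its annotated start.

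These are AT-rich, CpG-poor promoters. Over the 484 entries of member genes the median GC share was 36.5%, against 52.7% for all promoters of the RefSeq table, and the median number of CpG was 1, against 7. No CpG at all stood in 32.2% of the entries, against 5.43% of all promoters. A TATA box match stood in 36.2% of member entries, against 13.6% of all. TAATGA stood in 29.3%, against 9.78% of all, and TAATTA in 18.2%, against 5.29%. CCCNNGGG went the other way, with 2.89% of member entries against 13.7% of all. The motifs were searched on both strands, TAATTA and TAATGA can overlap each other, and the shares of AT-rich and GC-rich letters move with base composition. The annotated start was an ATG in 335 of the 484 entries, or 69.2%, against 5.83% of all promoters. For those genes RefSeq gives the coding exon and no upstream exon, so their listed start site is the start of the coding sequence.

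In the standard digestion the olfactory receptor promoters held a larger share of fragments in sperm than in ES cells. Within 1000 bp of their start sites lay 4.37% of all fragments in sperm and 2.80% in ES cells. Their pooled log2 ratio, sperm over ES cells, was 0.64 (0.62 to 0.67). A member averaged 39.1 fragments in sperm and 37.3 in ES cells, in which the library is deeper. Set against an average start site of the same library, this was 1.81 times the average in sperm and 1.16 times in ES cells. The 5th and 95th percentiles of members were 9.27 and 69.3 fragments in sperm, and 5.66 and 66.4 in ES cells, so the ranges overlap widely.

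Member by member, log2 ratios were computed with 1 fragment added to each sum. The median was 0.69, against -0.06 over all start sites, with quartiles of 0.30 and 1.06. Above 0 were 507 of 580 members, or 87.4%, against 46.8% of all start sites. With 1 library a group, a promoter counts as called at a difference of 2-fold or more. By that rule 28.8% of members were higher in sperm, against 7.37% of all start sites. In the other direction 6 members were lower in sperm, or 1.03%, against 8.89% of all start sites. The member's own counting interval lay above 0 for 280 members, below 0 for 7 and held 0 for 289, and 4 had too few fragments for an interval. The same count was not made over all start sites, so these numbers have no background beside them. On the same scale, olfactory receptors of chromosome 2 had a pooled log2 ratio of 0.85 (0.82 to 0.89, 286 start sites) and those of chromosome 7 one of 0.68 (0.64 to 0.72, 236 start sites). Low-CpG promoters outside receptor families had 0.13 (0.11 to 0.14, 2085 start sites), which lies below all of these intervals. The low-CpG class as a whole includes 314 of the members. Scaled to that whole class in place of all start sites, the median over all start sites moved by -0.31. The members' pooled value was then 0.34.

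The chromosomes differed. Chromosome 16 had the highest pooled log2 ratio of sperm to ES cells, 0.95 (0.84 to 1.06), with 43.2 fragments a promoter in sperm and 33.3 in ES cells. Chromosomes 14, 9 and 10 followed with 0.76, 0.75 and 0.74, whose intervals overlap. Chromosome 9 averaged the most fragments a promoter in sperm, 49.9, beside 44.3 in ES cells. Chromosomes 19, 1, 6, 17 and 11 had 0.67, 0.64, 0.57, 0.52 and 0.50, and chromosome 13, with 14 members, 0.44 (0.27 to 0.61). Chromosomes 3 and 8, with 2 and 5 members, had 0.44 (0.03 to 0.86) and 0.40 (0.01 to 0.77).

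Chromosomes 4 and 15 had the lowest pooled ratios over 1000 bp to each side. The 25 promoters of chromosome 4 averaged 26.7 fragments in sperm and 38.7 in ES cells, a pooled log2 ratio of 0.04 (-0.10 to 0.19), with 10 of 25 above 0. The 9 promoters of chromosome 15 averaged 22.3 in sperm and 39.1 in ES cells, a ratio of -0.23 (-0.49 to 0.02), with 3 of 9 above 0. The intervals of both lie wholly below those of chromosomes 16, 14, 9, 10, 19, 1, 6, 17 and 11. In ES cells their levels, at 1.20 and 1.22 times an average start site, were among those of the other chromosomes, which ran from 0.775 to 1.62. In sperm they were at 1.24 and 1.04 times the average, and of the other chromosomes only chromosome 8, at 1.02, was below both. The median promoter GC share was 45.5% on chromosome 4 (20 promoters with an entry) and 49.3% on chromosome 15 (7), against 35% on chromosome 16 (29) and 34% on chromosome 9, where 81.8% had an entry. The part of base composition in these differences was not tested.

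**Figure D1:**
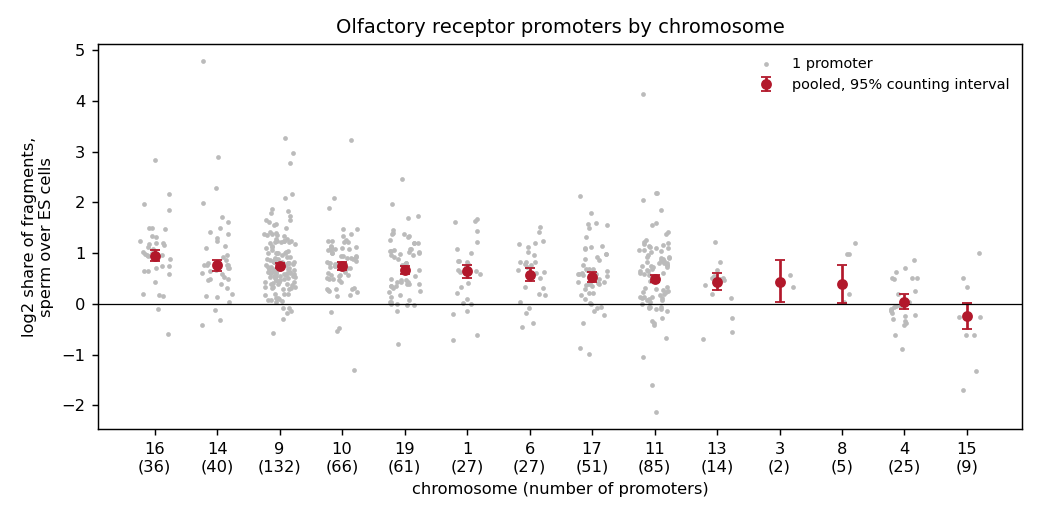
Log2 ratio of a promoter's share of fragments in sperm over ES cells (vertical axis) by chromosome, ordered by the pooled value, with the number of promoters in brackets. Gray points are single promoters with 1 fragment added, and red points are pooled ratios with their 95% counting intervals: 12 of the 14 pooled values have an interval above 0, and those of chromosomes 4 and 15 hold 0.

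Within chromosomes, members fell into 37 clusters when neighbours up to 1 Mb apart were joined. Of these, 8 were single genes and 14 held 10 or more members, 499 in all. In 13 of the 14 the interval of the pooled log2 ratio lay above 0. The highest was the cluster of 25 on chromosome 16 from 58761353 to 59362042 (mm9), at 1.08 (0.95 to 1.22), where 24 of 25 members were above 0. The 96 members on chromosome 9 from 37519865 to 39994663 had 0.72 (0.66 to 0.78), and the 36 on the same chromosome from 18560077 to 20140538 had 0.82 (0.72 to 0.91), so the clusters on chromosome 9 do not differ beyond their intervals. On chromosome 17 the 47 members from 37223181 to 38472103, the cluster beside the major histocompatibility complex, had 0.54 (0.44 to 0.65). The exception was the cluster of 13 on chromosome 4 from 118338123 to 118607445, at -0.01 (-0.22 to 0.20).

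Some clusters of 1 chromosome differed from each other. On chromosome 1 the 19 members from 174886898 to 176378755 had 0.87 (0.72 to 1.02), all 19 above 0, with a median promoter GC share of 38%. The 8 members from 94377196 had -0.13, with a median GC share of 51.3%. On chromosome 11 the 24 members from 58269482 to 59426467 had 0.79 (0.61 to 0.97) and the 19 members from 48864234 to 49377424 had 0.22 (0.05 to 0.38), with median GC shares of 42.3% and 39%, so there the cluster with the higher ratio also had the higher GC share. A group of 3 on chromosome 11 at 51959030 had -1.55, the lowest of the 37, and it includes Olfr1373.

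Single promoters were named by a rule that took the 6 highest and the 6 lowest ratios among the 545 members with 20 or more fragments in both libraries together. These values are a description. The Olfr725 start site (chromosome 14, 50655175, mm9) had 35.7 fragments in sperm and 1.0 in ES cells, a log2 ratio of 5.73 (3.18 to 11.1) with nothing added. Olfr320 (chromosome 11, 58497376) had 21.4 in sperm and 0.909 in ES cells, a log2 ratio of 5.13 (2.33 to 10.3). At these sites the ES cell window was nearly empty although the average member had 37.3 fragments there. Over 2000 bp to each side Olfr725 had 68.5 fragments in sperm and 5.45 in ES cells, and Olfr320 had 56.6 in sperm and 15 in ES cells. In the unspun sperm libraries, both had 0 fragments within 1000 bp at every dose, which allows up to 3 fragments at each. All 580 members together had 406 fragments in the 0.5-unit library and 213 in the 50-unit library. A 0 at a single promoter there cannot be read as a loss.

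Olfr250 had 50.9 fragments in sperm and 7.0 in ES cells, and Olfr251, its neighbour on chromosome 9, had 50.2 in sperm and 8.68 in ES cells. Each lies within 21 bp of another listed start site, so the DNA of that window is shared. Olfr196 on chromosome 16 had 57.9 in sperm and 11.3 in ES cells, and Olfr857 on chromosome 9 had 22 in sperm and 4.05 in ES cells. All 4 log2 ratios with 1 fragment added were between 2.76 and 3.27. Over the 6 highest, counts ran from 21.4 to 57.9 in sperm and from 0.909 to 11.3 in ES cells.

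The lowest of the 545 was Olfr279 on chromosome 15 (98327904, mm9), in the authors' high-CpG class, with 5.05 fragments in sperm and 28.3 in ES cells, a log2 ratio of -1.70 with 1 fragment added. Olfr282, in the same cluster, had 12.1 in sperm and 48 in ES cells. Olfr1373 on chromosome 11 had 3.91 in sperm and 21.2 in ES cells, and Olfr464 on the same chromosome had 18.7 in sperm and 59.7 in ES cells. Olfr156 on chromosome 4 had 12.7 in sperm and 37.1 in ES cells, and Olfr96 on chromosome 17 had 21.6 in sperm and 60.7 in ES cells. All 6 promoters had a GC share above the members' median, 5 of them between 43.3% and 50.7% and that of Olfr96 at 37.3%. Of the 6 highest, Olfr250 at 40% and Olfr251 at 36.7% were above that median as well. Olfr725 at 33.3% and Olfr196 at 31.3% were below it, and Olfr320 and Olfr857 had no entry.

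The member with most fragments was taken on each of the 11 chromosomes with 10 or more members. On chromosome 9 this was Olfr873, with 72.5 fragments in sperm and 82.6 in ES cells, a log2 ratio of 0.39 with 1 fragment added. On chromosome 10 it was Olfr791, with 74.1 in sperm and 91 in ES cells and a ratio of 0.28. Olfr722 on chromosome 14 had 64.7 in sperm and 87 in ES cells, Olfr20 on chromosome 11 had 57.2 in sperm and 73.2 in ES cells, and Olfr273 on chromosome 4 had 46.4 in sperm and 77.2 in ES cells. The highest log2 ratios of the 11 were those of Olfr466 on chromosome 13 with 1.22, Olfr1467 on chromosome 19 with 1.07 and Olfr175 on chromosome 16 with 0.98. The fragments of the 580 members in sperm and ES cells had a Spearman correlation of 0.67, a description across promoters of 1 library each.

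Receptors with a name of their own in the literature did not stand together. Olfr16 on chromosome 1 had 35 fragments in sperm and 49 in ES cells, a log2 ratio of 0.09 (-0.58 to 0.75) with nothing added. Olfr160 (M72, a receptor for acetophenone) on chromosome 9 had 20.0 in sperm and 45.7 in ES cells, and Olfr15 on chromosome 16 had 27.7 in sperm and 63.9 in ES cells. Their log2 ratios of -0.61 (-1.46 to 0.16) and -0.63 (-1.31 to 0.05) had intervals that hold 0. Olfr1507 (MOR28, the best known gene beside the H enhancer on chromosome 14) has start sites at 53110721 and 53115370. It had 39.6 and 57.1 fragments there in sperm, and 31.1 and 29.6 in ES cells. Both intervals lay above 0. Its neighbour Olfr1508 had 47 in sperm and 32.3 in ES cells, a log2 ratio of 1.12 (0.45 to 1.83), and Olfr1509 had 53.9 in sperm and 56 in ES cells, a ratio of 0.52 (-0.04 to 1.09).

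The ratio fell along promoter GC share, in members and in other promoters alike. The 479 members matched to a single RefSeq entry were set beside promoters outside receptor families in the same GC range. In the range of 20 to 30% GC, 50 members had a pooled log2 ratio, sperm over ES cells, of 0.91 (0.82 to 1.00) and 12 other promoters had 0.94 (0.76 to 1.12). From 30 to 35%, which holds 31.5% of the matched members, members had 0.80 (0.75 to 0.85) and 87 others had 0.75 (0.68 to 0.83). From 35 to 40%, 130 members had 0.56 (0.51 to 0.62) and 350 others had 0.60 (0.56 to 0.63). In these 3 ranges the intervals of members and others overlap.

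Above 40% GC the members' pooled ratios were higher than those of the others in both of the next ranges. From 40 to 45%, 84 members had 0.50 (0.42 to 0.57) and 950 others had 0.37 (0.35 to 0.39). From 45 to 50%, 48 members had 0.30 (0.19 to 0.41) and 1514 others had 0.13 (0.11 to 0.15). The medians over promoters were close in this range, 0.24 for members and 0.22 for others, and 30 of 48 members and 940 of 1514 others were above 0. How GC share is spread within a range was not compared. From 50 to 65%, 16 members had -0.18 (-0.38 to 0.03) and 6532 others had -0.18 (-0.19 to -0.17). Sperm carried the trend: from the first range to the last, members averaged 46.2, 43.4, 42.2, 34.7, 26.9 and 19.2 fragments in sperm, and 36.7, 37.2, 42.5, 36.6, 32.6 and 32.3 in ES cells. Over the 451 matched members with 20 or more fragments, Spearman's rho with GC share was -0.37 for sperm fragments and -0.04 for ES cell fragments.

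**Figure D2:**
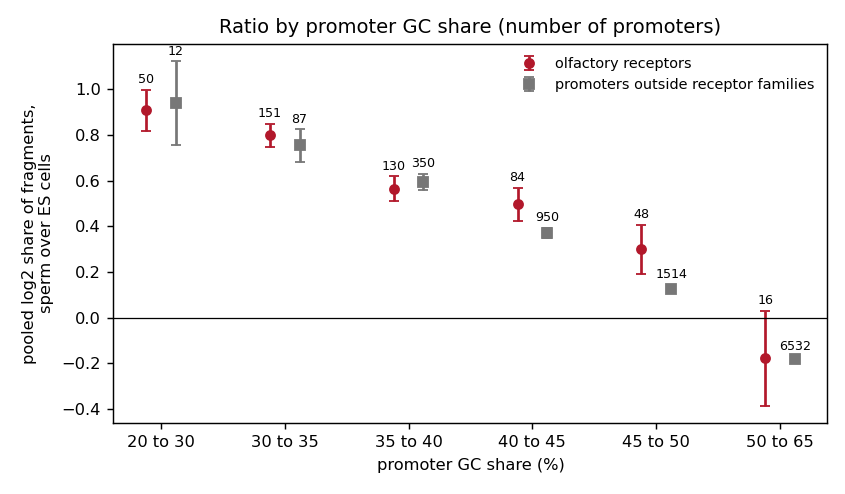
Pooled log2 ratio of the share of fragments in sperm over ES cells (vertical axis) by promoter GC share in percent (horizontal axis), for olfactory receptors (red circles) and promoters outside receptor families (gray squares), with 95% counting intervals and the number of promoters above each. Both sets run downwards, from 0.91 and 0.94 in the first range to -0.18 and -0.18 in the last.

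Copies with much the same sequence are a limit for this family, since reads that map to several places could be lost or shared out, and their treatment was not given in the sources used here. Promoters that share 50% or more of their 30-base words with another promoter belong to 15 members, which had a pooled log2 ratio of 1.55 (1.17 to 1.96). Without them, the other 565 had 0.64 (0.61 to 0.67). These 565 include members with no promoter entry, which were not checked for shared words, since 483 of the 580 members had one. The words came from 250 bases before and 50 after the start, while the ratio covers 1000 bp to each side. Close copies may therefore remain among the 565. The promoters with 0 fragments in ES cells were those of Olfr724, Olfr819, Olfr239, Olfr1354, Olfr56, Olfr247 and Olfr55, of which 4 share words in this way, and in sperm those of Olfr56, Olfr247, Olfr55 and Olfr92 had 0. These genes were picked by their values.

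The stretch behind the start site held fewer fragments than its surroundings in both deep libraries. In members annotated from the ATG this stretch holds the coding exon. Over the first 1000 bp downstream the members' pooled coverage was 0.53 times (0.52 to 0.55) the mean of the flanks, from 1000 to 2000 bp on each side, in sperm, and 0.63 times (0.61 to 0.65) in ES cells. The deepest 200 bp step was 200 to 400 bp downstream, with 0.42 in sperm and 0.50 in ES cells. By 800 to 1000 bp coverage was at 0.76 in sperm and 0.83 in ES cells, and by 1000 to 1200 bp it was at 1.05 in sperm and 1.06 in ES cells. The length of this stretch is close to that of the genes: members annotated from the ATG have a median length of 942 bp. The 200 bp before the start were at 0.90 (0.86 to 0.94) in sperm and 0.96 (0.92 to 1.00) in ES cells.

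The dip was deeper where RefSeq starts at the ATG. Those 334 members had 0.48 (0.46 to 0.50) over 1000 bp downstream in sperm and 0.60 (0.58 to 0.62) in ES cells. The members with other bases at the start, 30.3% of those matched, had 0.66 (0.63 to 0.70) in sperm and 0.74 (0.71 to 0.78) in ES cells. Olfactory receptors of chromosomes 2 and 7 had 0.57 and 0.51 in sperm, and 0.68 and 0.62 in ES cells. Low-CpG promoters outside receptor families had 0.87 (0.86 to 0.89) in sperm and 0.95 (0.94 to 0.96) in ES cells, so their dip is shallower than that of the receptors by more than the intervals.

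The sperm titrations did not show this dip at their high doses. In pellets at 1, 5, 20 and 100 units the first 1000 bp downstream of the 424 members were at 1.34 (0.93 to 1.97), 1.44 (1.08 to 1.89), 1.94 (1.5 to 2.53) and 2.44 (1.92 to 3.07) times the flanks. In supernatants they were at 1.21 (1.00 to 1.44), 1.40 (1.11 to 1.74), 1.38 (1.11 to 1.70) and 1.74 (1.42 to 2.14). In unspun digests at 0.5, 2, 10 and 50 units the 580 members were at 0.78 (0.65 to 0.93), 0.95 (0.78 to 1.17), 1.03 (0.82 to 1.30) and 1.05 (0.83 to 1.33). Pooled over members, this stretch was thus below its flanks in the standard sperm library and the 0.5-unit digest, and above them in all 4 pellets and 4 supernatants. There the interval of the 1-unit pellet holds 1 and that of the 1-unit supernatant ends at it. Members with other bases than ATG at the start were at 0.80 (0.54 to 1.14) in the 1-unit supernatant and 1.03 (0.50 to 2.05) in the 1-unit pellet. In the other pellets and supernatants their values were above 1 too, but the intervals at 5 and 20 units hold 1. At 100 units these members were at 1.68 (1.07 to 2.53) in the supernatant and 2.95 (1.86 to 4.62) in the pellet. Low-CpG promoters outside receptor families were at 1.24 (1.14 to 1.36) in the 100-unit pellet and 1.23 (1.14 to 1.32) in the 100-unit supernatant. The count tables were made apart from the pileup tables and hold fewer members, and no source used here states their fragment sizes.

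**Figure D3:**
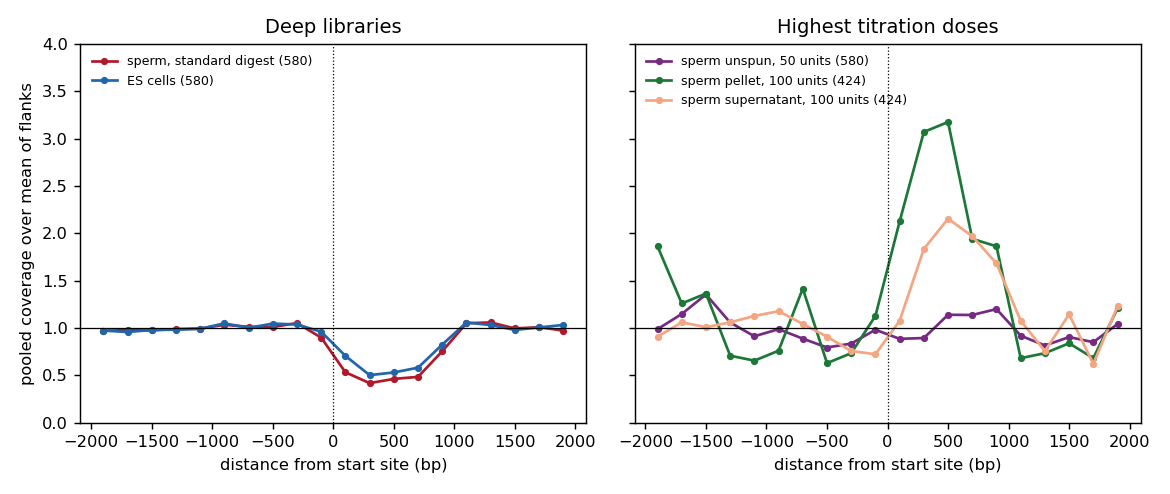
Pooled coverage of olfactory receptor promoters over the mean of their flanks (vertical axis) by distance from the start site in bp (horizontal axis, steps of 200 bp), in the standard sperm and ES cell libraries (left) and the libraries of the highest titration doses (right), with the number of promoters in brackets. The stretch up to about 1000 bp downstream dips to 0.42 in sperm and 0.50 in ES cells, while the pellet and supernatant of 100 units lie above their flanks there.

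Over the titrations the members' share of fragments was lower at higher doses. In unspun digests at 0.5, 2, 10 and 50 units the 580 members held 2.07%, 1.48%, 1.30% and 1.31% of fragments within 1000 bp of start sites. In pellets at 1, 5, 20 and 100 units the 424 members held 3.27%, 2.42%, 2.30% and 1.52%. The descriptions of the 5- and 20-unit pellets name 2 and 5 units, which leaves their order as it is. In supernatants the members held 3.39%, 3.0%, 2.01% and 1.56%. The highest dose against the lowest was 0.63-fold in the unspun series, a log2 change of -0.67 (-0.92 to -0.43). It was 0.46-fold in pellets, -1.10 (-1.45 to -0.73), and 0.46-fold in supernatants, -1.12 (-1.35 to -0.89). In pellets and supernatants the lowest dose is the 1-unit library that stands apart, and from 5 to 100 units the log2 changes were -0.67 in pellets and -0.94 in supernatants.

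Low-CpG promoters outside receptor families moved the same way by less, at -0.40 (-0.50 to -0.30) in the unspun series, -0.42 (-0.59 to -0.25) in pellets and -0.22 (-0.31 to -0.12) in supernatants. The intervals of members and of these promoters part in pellets and supernatants and overlap in the unspun series. Set beside promoters of like GC share, members were not lower throughout. Between 30 and 35% GC, the range with most members, the log2 change in pellets was -1.5 (-2.20 to -0.77) for members and -0.71 (-2.28 to 1.04) for promoters outside receptor families. In supernatants it was -1.45 (-1.94 to -1.0) for members and -2.11 (-3.02 to -1.20) for the others, and in unspun digests -1.24 (-1.84 to -0.67) for members and -0.86 (-1.58 to -0.22) for the others. Between 35 and 40% GC the log2 change in pellets was -1.12 (-1.93 to -0.29) for members and -0.96 (-1.46 to -0.43) for promoters outside receptor families. In supernatants it was -1.37 (-1.85 to -0.89) for members and -0.90 (-1.21 to -0.58) for the others. In unspun digests it was -0.67 (-1.20 to -0.18) for members and -0.70 (-1.02 to -0.39) for the others, and in both ranges the intervals of members and others overlap in all 3 series. Promoters of 50 to 65% GC outside receptor families had 0.08 in pellets, 0.05 in supernatants and 0.00 in unspun digests.

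**Figure D4:**
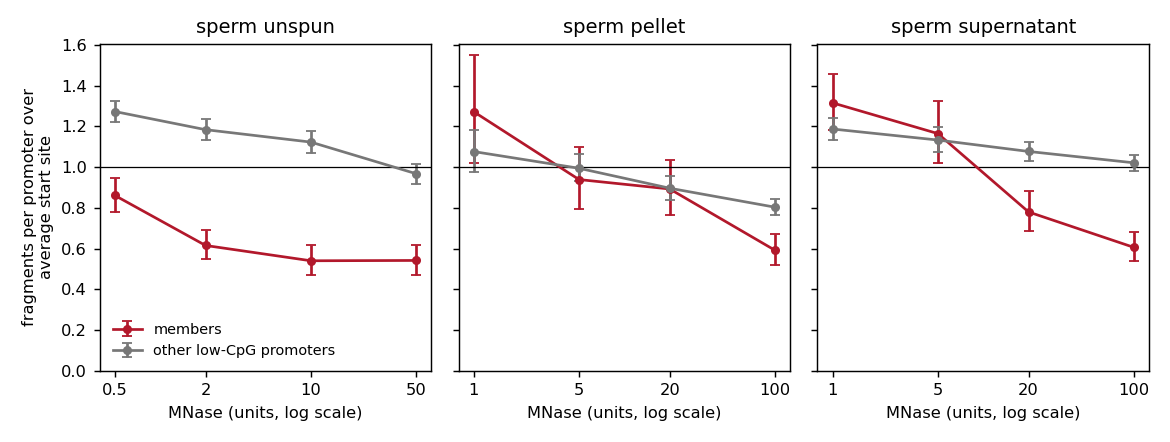
Fragments per promoter over those of an average start site of the same library (vertical axis) by MNase units (horizontal axis, log scale) in the unspun, pellet and supernatant series, for olfactory receptors (red, members) and low-CpG promoters outside receptor families (gray), with 95% counting intervals. Members end at 0.54, 0.59 and 0.61 times the average at the highest doses of the unspun, pellet and supernatant series.

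Set on the same 424 members and 16482 start sites, the standard sperm library stood above every titrated one. It held 5.06% (4.98 to 5.13) there and the ES cell library 3.24% (3.19 to 3.28). The unspun libraries held 2.43%, 1.73%, 1.53% and 1.48% from the lowest to the highest dose, all below ES cells. Only the pellet and supernatant at 1 unit, with 3.27% (2.63 to 3.99) and 3.39% (3.05 to 3.75), and the supernatant at 5 units had intervals that hold the ES cell value. Whether sperm stood above or below ES cells at these promoters thus differed between sperm preparations. No source used here states how many sperm were titrated, so the doses cannot be set beside the standard digestion.

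Single promoters were too shallow to follow over the doses. Members averaged 0.21 to 0.83 fragments a promoter in the pellets and supernatants, and 214 to 360 of the 424 had 0. Chromosome 9, with the most members, held 0.64%, 0.51%, 0.60% and 0.33% of fragments in pellets at 1, 5, 20 and 100 units, and 0.99%, 0.85%, 0.50% and 0.34% in supernatants, where the log2 change was -1.52 (-1.99 to -1.04). Its unspun libraries at 0.5, 2, 10 and 50 units held 0.50%, 0.34%, 0.26% and 0.37%, a change of -0.43 (-0.91 to 0.05). Chromosome 19 had changes of -1.61 (-2.65 to -0.42) in pellets, -1.66 (-2.46 to -0.89) in supernatants and -1.10 (-1.93 to -0.38) in unspun digests. On chromosome 4 the changes were -1.0 (-2.64 to 0.78) in pellets, -0.58 (-1.62 to 0.62) in supernatants and 0.18 (-0.80 to 1.17) in unspun digests, which are too wide to give a direction.

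No member passed a test over the titration. Dose and fraction were tested with edgeR's quasi-likelihood test on the 8 pellet and supernatant libraries, with log2 units and fraction as terms and doses in place of replicates. Of the 424 members counted there, 43.4% were deep enough to be among the 9090 promoters tested, and with Benjamini-Hochberg adjustment 0 members were called with dose, against 0% of all tested, 0 with pellet over supernatant, against 0%, and 0 with their interaction, against 0%. At an unadjusted p under 0.05 edgeR gave 10 members with dose, or 5.43% of those tested, against 9.88% of all promoters tested. It gave 22 with fraction, or 12%, against 9.15% of all, and 5 with the interaction, or 2.72%, against 2.65% of all. DESeq2 gave 1, 5 and 0 members, against 96, 92 and 9 of all 9090. In counts simulated from these libraries the dose test found 0% of promoters with a log2 slope of 1 per doubling of units, so single promoters cannot be read at this depth.

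Summed over 1 Mb, the dose test found 60% of bins simulated with a slope of 0.5 and 100% of those with a slope of 1. Of 1576 bins tested, 22 were made up of members for 50% or more of their start sites. None of the 22 was called with dose, against 0% of all bins, with fraction, against 0%, or with the interaction, against 0%. The dose slope was below 0 in 16 of the 22, and in 574 of all 1576 bins. Slopes of the 22 ran from -0.36 to 0.11, all smaller in size than those simulated. The simulation therefore does not tell how often the test finds slopes of that size. At an unadjusted p under 0.05 edgeR gave 6 of the 22 with dose, all with slopes below 0, against 74 of 1576. It gave 0 with fraction, against 2.66% of all bins, and 0 with the interaction, against 4.00%. DESeq2 gave 6, or 27.3%, with dose, against 7.99% of all bins. It gave 1, or 4.55%, with fraction, against 6.15%, and 0 with the interaction, against 5.52%. With 22 bins, the counts for fraction and interaction cannot be told from those shares. The 6 of edgeR were 3 bins of chromosome 9 and 1 each of chromosomes 10, 1 and 19. The bin of chromosome 9 from 38000001 to 39000000, with 35 members among 38 start sites, had a slope of -0.18 per doubling of units. Its pellet counts were 24, 28, 31 and 45 and its supernatant counts 79, 60, 77 and 59 at 1, 5, 20 and 100 units, in libraries whose totals differ.

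Pellet and supernatant of the same dose, by their titles, differed by no more than counting error at 3 of the 4 doses. The log2 ratio of pellet to supernatant was -0.05 (-0.41 to 0.28), -0.31 (-0.62 to -0.01), 0.19 (-0.10 to 0.48) and -0.03 (-0.29 to 0.22) at 1, 5, 20 and 100 units. The interval at 5 units ends just below 0, and the others hold 0.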

How the data were processed

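The members and the lists were chosen with earlier results of these data known. The pileup tables, which the authors deposited for ES cells, standard sperm and the unspun digests, hold a signal: unscaled coverage in bins of 20 bp by fragments of 135 to 165 bp, per the file headers and names. The tables deposited for the pellet and supernatant series hold unscaled counts per bin. Their header labels give steps of 20 bp, but values in overlapping windows matched at 50 bp for 70.0% of bins and at 20 bp for 1.18%, so 50 bp was used. Bowtie, SAMtools 0.1.16 and the build mm9 are named in the submitters' processing notes. Filters, duplicates and the treatment of reads mapping to several places were not given in the sources used here.

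From the 17 samples, the unspun ES cells, the sonicated input and the H3 immunoprecipitation (3 samples) were left out. Per the labels' protocols sperm nuclei had 1 unit of MNase for a far larger number of cells than the ES cell nuclei, which had 10 units, and all were digested for 5 min. Descriptions of the 5- and 20-unit pellet samples give other units than their titles, which were followed. Positions were taken once, and RefSeq IDs were matched to symbols in the RefSeq gene table of GRCm38.p6 (27264 of 28015 rows). Start sites are given in mm9 as in the tables, and promoter sequences and their coordinates in GRCm38.p6, matched by symbol.

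Table sums over 1000 bp to each side were divided by what an isolated fragment adds (22 in pileups, 2.54 to 2.87 counts in count tables). A fragment can count in several bins, and the intervals treat fragments as independent, which reads without molecular identifiers need not be. The 95% intervals are exact (Clopper-Pearson), and 0 fragments allow up to 3. Single-promoter ratios had 1 fragment added. Named were the 6 highest and 6 lowest ratios among members with 20 or more fragments, the deepest member of each chromosome with 10 or more, any member called by edgeR, and receptors with names of their own in the literature. edgeR 4.0.16 and DESeq2 1.42.0 (R 4.3.3) ran on counts, with minimums of 12 counts a promoter and 30 a bin and TMM scaling, and were tested on simulated data. Doses stood in for replicates, so p-values measure consistency over doses and not over animals. Python 3 with numpy, scipy and matplotlib did the rest. GC ranges, the 1000 bp downstream window and the split by near-identical promoters were chosen after seeing the data.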

Additional observations from a re-analysis of the deposited data

How the results depend on the processing

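The pooled log2 ratio of sperm to ES cells (0.64) stayed above 0 under all 9 alternatives. It was 0.60 over 2000 bp to each side, 0.34 as a share of low-CpG promoters, 0.71 as a share of promoters outside receptor families, 0.61 for members with a row in the count tables and 0.60 without chromosome 9. A share of low-CpG promoters, here and for the doses below, is a share of the whole class, members included. The median over members was 0.61 over 2000 bp. The 6 members lower in sperm by 2-fold became 13 over 200 bp and 1 over 2000 bp. Chromosome 8 turned to -0.10 over 200 bp, and its interval there holds 0. Over 200 bp chromosome 15 turned to 0.05 (-0.60 to 0.64) and chromosome 4 had 0.25 (-0.10 to 0.59). Both intervals overlap those of most other chromosomes over 200 bp. As a share of low-CpG promoters, chromosome 15 had -0.54 (-0.79 to -0.28) and chromosome 4 had -0.26 (-0.41 to -0.12). With flanks of 500 to 1500 bp the ratio before the start was 0.99 in sperm and 1.03 in ES cells, and that of the 300 bp behind it 0.54 in sperm, against 0.49 with the flanks used, and 0.69 in ES cells, against 0.64.

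The log2 change of the members' share over the doses stayed below 0 under every alternative. In unspun digests it was -1.21 over 200 bp, -0.22 (-0.46 to 0.02) as a share of low-CpG promoters and -0.18 (-0.44 to 0.08) from the second to the highest dose. In pellets it was -0.47 as a share of low-CpG promoters, -0.67 from the second to the highest dose and -0.51 from the lowest to the third. In supernatants it was -1.94 over 200 bp, -0.68 as a share of low-CpG promoters and -0.75 from the lowest to the third dose. The causes were not tested. Under every scaling, filter and bin size tried, edgeR called 0 members and 0 bins with the share of members stated above. DESeq2 also called 0 of these, as did edgeR without both 1-unit libraries and with each library left out in turn. Other bins were called in some settings. Of all bins, 1 was called with dose under the size factors of DESeq2 and 2 under library size alone. With 2 Mb bins 2 were called with dose, and DESeq2 called 3. All had slopes below 0. With no filter on low counts, edgeR called 2 of all bins with the interaction and 1 of all promoters with fraction. With 1 library left out, up to 2 of all bins were called with dose. A paired fit with the dose as a block sets pellet against supernatant of the same dose by title. In it edgeR called 0 members and 0 bins with fraction. At an unadjusted p under 0.05 this edgeR fit gave 1 member and 28 of the 9090 promoters, against 22 members and 832 promoters without the block. Counting depth limits single promoters in the titrations, and the single library of each group limits every comparison.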
